A study of Mus musculus with 12 samples.

Results

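The genes described here carry the names of splicing factors, heterogeneous nuclear ribonucleoproteins (hnRNPs) and RNA-binding motif (RBM) proteins. The RBM genes differ widely in function, and not all act in splicing. Below, splicing factor genes means the whole set. They were chosen by gene name: Srsf genes with a number, all Hnrnp genes, Rbm genes with a number or an x, the Sf3a and Sf3b subunits, and Tra2a and Tra2b. Rbm4 and Rbm4b were left out of the 85 names that matched, which gave 83 genes of the 21771 in the mRNA table. They comprise 41 RBM genes, 20 hnRNP genes, 11 SR protein genes, 9 SF3A and SF3B subunit genes and 2 transformer-2 genes.

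MTEC1 is a mouse cell line that the labels give as medullary thymic epithelial and wild type. It was grown with PAMK, the usual abbreviation for a polysaccharide of the rhizome of Atractylodes macrocephala Koidz, or without it, and total RNA depleted of ribosomal RNA was sequenced in 3 control and 3 PAMK libraries. PAMK was given at 50 µg/ml for 12 h, while the design text has the untreated cells cultured for only 6 h. Treatment and time in culture cannot be told apart. All libraries came from 1 cell line, and nothing in the labels says that the libraries of a group were separate cultures, so the p-values measure a spread that may be technical.

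Levels are in FPKM, fragments scaled to transcript length and library total, so that levels can be set beside each other per length. The unit is inferred from the values, since the headers say only normalized counts. A gene's level is the sum of its coding transcripts, with the deposited placeholder of 0.0001 read as 0. Summed FPKM was 133684 to 145879 per library, and the 83 genes held 0.914% to 1.04% of it. The number of fragments per library is unknown. Of 10 thymic epithelial markers, Krt5, Krt14, Epcam, Aire and Cldn4 were listed at 0 in all 6 libraries, and the summed level of the list was 2.10 to 2.37 FPKM in the controls and 1.18 to 2.55 FPKM with PAMK. The 8 fibroblast or mesenchymal markers summed to 205 to 331 FPKM in the controls and 237 to 380 FPKM with PAMK. The 6 haematopoietic markers summed to 2.20 to 2.65 FPKM in the controls and 3.10 to 3.93 FPKM with PAMK, with Cd3e and Itgam at 0, and the 4 endothelial markers to at most 0.0694 FPKM in any library. The part of these marker levels in the results was not tested.

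Most mouse genes are transcribed with introns, which the spliceosome removes. SR proteins and the related transformer-2 proteins bind exonic enhancers and usually favour inclusion of an exon, while many hnRNPs bind silencers and favour skipping. The SF3A and SF3B complexes belong to the U2 snRNP, which recognises the branch point of an intron. Many of these genes splice their own transcripts into forms with a premature stop codon, often by including a poison exon, and so limit their own level.

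The transformer-2 genes carry the isoform result described first, and 1 promoter window is shown for each. The 5′ ends of the listed Tra2b transcripts lie 10758 bases apart, so the Tra2b window cannot cover both. Those of Tra2a lie 20 bases apart, so a single window does not separate them. A link between these sequences and the isoforms was not tested. The sequences are from RefSeq with build GRCm38.p6 and run from 250 bases before to 50 bases after the annotated start, 5′ to 3′ on the minus strand. Tra2a lies at chr6:49264003-49264302 and Tra2b at chr16:22265956-22266255. Capitals mark the cAMP response element TGACGTCA.
Tra2a: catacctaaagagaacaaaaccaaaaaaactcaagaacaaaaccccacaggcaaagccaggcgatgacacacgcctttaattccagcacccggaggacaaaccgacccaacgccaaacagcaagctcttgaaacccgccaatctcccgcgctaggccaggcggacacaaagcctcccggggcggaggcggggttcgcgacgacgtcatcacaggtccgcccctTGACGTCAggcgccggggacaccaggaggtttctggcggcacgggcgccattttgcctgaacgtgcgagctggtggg
Tra2b: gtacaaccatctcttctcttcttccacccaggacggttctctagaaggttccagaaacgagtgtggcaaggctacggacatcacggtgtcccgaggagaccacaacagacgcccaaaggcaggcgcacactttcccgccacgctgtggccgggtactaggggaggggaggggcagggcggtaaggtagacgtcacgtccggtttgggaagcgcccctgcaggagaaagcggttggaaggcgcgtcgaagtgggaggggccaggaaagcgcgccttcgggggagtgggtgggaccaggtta

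Short motifs were searched in these windows on both strands. TGACGTCA was found in the Tra2a window, with its first base at position 224, and in none of the other promoter windows of these genes. That is 1 of the 88 windows that 70 of the 83 genes have in the table (1.14%), beside 1.79% of all 32851 windows. The GC box GGGCGG was in 64.8% of the 88 windows and 35.7% of all windows, and CCAAT was in 45.5% and 37.4%. TATAAA was in 12.5% and 13.6%. These matches describe the letters only.

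Tra2a differed between the groups in which of its coding transcripts was listed. Tra2a and Tra2b encode the mammalian homologues of the fly transformer-2 protein, which bind GA-rich exonic enhancers. The Tra2a transcript ENSMUST00000031841 was at 1.14, 0.906 and 0 FPKM in the controls and at 40.9, 26.0 and 21.1 FPKM with PAMK. The transcript ENSMUST00000204189 was at 38.5, 37.7 and 5.40 FPKM in the controls and at 0, 0 and 1.04 FPKM with PAMK. Every PAMK library was therefore above every control for the first and below every control for the second.

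As a share of the Tra2a coding sum, ENSMUST00000031841 held 2.87%, 2.35% and 0% in the controls and 100%, 100% and 95.3% with PAMK. The difference of the group means was 96.7 percentage points, and 1.39 ± 0.0940 (SE) on the arcsine square root scale used for the test. It passed limma's two-sided test with Benjamini-Hochberg adjustment over all 9272 transcript shares tested (adjusted p = 0.0162, n = 3 per group). With only 2 transcripts listed above 0, the share of ENSMUST00000204189 is the mirror image and passed with the same adjusted p in limma. These were 2 of the 14 shares tested in Tra2a, Tra2b and the Srsf genes, while 27 of all 9272 shares (0.291%) passed, in 19 of 3518 genes.

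**Figure D1:**
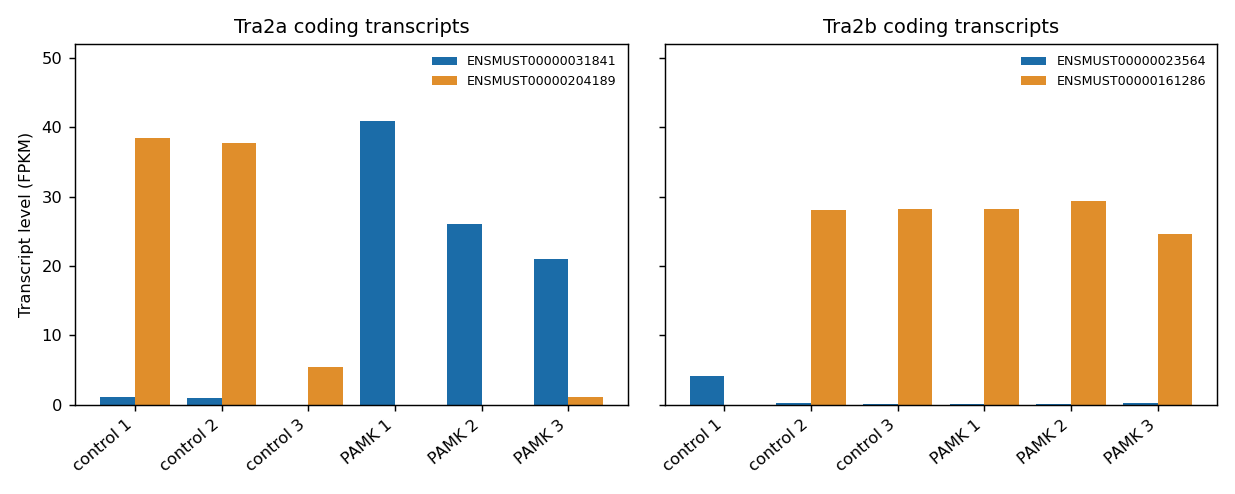
Level in FPKM of each coding transcript of Tra2a (left) and Tra2b (right) in each of the 6 libraries; a bar is 1 transcript in 1 library. For Tra2a the 3 controls hold ENSMUST00000204189 and the 3 PAMK libraries ENSMUST00000031841, while for Tra2b only control 1 differs, with 4.14 FPKM of ENSMUST00000023564 and 0 of the other transcript.

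At the transcript level ENSMUST00000031841 rose with PAMK, by 4.19 ± 0.389 (SE) on the log2(FPKM + 1) scale, with an adjusted p of 0.0485 in limma over 14728 transcripts. It was the 1 transcript past the threshold of 0.05 among the 125 tested of these genes, beside 30 of 14728 (0.204%) in all. At an unadjusted p under 0.05 there were 13 of the 125 (10.4%), beside 7.48% of all transcripts, and the groups did not overlap in 22 (17.6%), beside 15.9%. The difference of ENSMUST00000204189 was -4.08 ± 0.819 and did not pass in limma (adjusted p = 0.335). Control 3, at 5.40 FPKM, was far below the other controls, and without that library it passed (adjusted p = 0.0426). The rise of ENSMUST00000031841 did not pass in limma without control 1 (0.0820), control 2 (0.0948), PAMK 1 (0.0780), PAMK 2 (0.120) or PAMK 3 (0.0835), and it did without control 3 (0.0451). The share call was also lost without PAMK 1 (limma adjusted p = 0.0504) or PAMK 2 (0.0760).

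In the files' coordinates, with the build not given in the sources used, ENSMUST00000031841 spans chr6:49243928-49264030 and ENSMUST00000204189 spans chr6:49243924-49264010, both on the minus strand. Their 5′ ends lie 20 bases apart and their 3′ ends 4 bases apart. How reads of such closely placed transcripts were assigned was not tested. The summed Tra2a level did not separate the groups. It was 39.6, 38.6 and 5.40 FPKM in the controls and 40.9, 26.0 and 22.1 FPKM with PAMK. The log2 difference of the sum was 0.45 ± 0.801 (limma adjusted p = 0.866). Control 3 was the lowest library, and the others overlapped.

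Noncoding transcripts named Tra2a are in the lncRNA table. ENSMUST00000204818 was at 6.87, 5.26 and 5.69 FPKM in the controls and at 1.21, 0.0177 and 1.83 FPKM with PAMK. All PAMK libraries were below all controls, but the log2(FPKM + 0.1) difference of -3.17 ± 1.01 did not pass in limma over 23670 noncoding transcripts (adjusted p = 0.839). ENSMUST00000204013 was at 7.12, 5.86 and 6.23 FPKM in the controls and at 6.33, 6.22 and 6.85 FPKM with PAMK, with overlapping groups. With both noncoding transcripts in the denominator, ENSMUST00000031841 held 2.12%, 1.82% and 0% in the controls and 84.4%, 80.6% and 68.4% with PAMK, and its share still passed in limma (adjusted p = 0.0317). The share of ENSMUST00000204189 then was 71.8%, 75.8% and 31.2% in the controls and 0%, 0% and 3.38% with PAMK, and it did not pass (limma adjusted p = 0.278). The 2 tables may have been scaled separately.

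Tra2b, the paralogue, had 1 library that stood apart. Its transcript ENSMUST00000161286 was at 0, 28.0 and 28.2 FPKM in the controls and at 28.2, 29.3 and 24.6 FPKM with PAMK. ENSMUST00000023564 was at 4.14, 0.296 and 0.0246 FPKM in the controls and at 0.0257, 0.0217 and 0.266 FPKM with PAMK. Control 1 thus held the second transcript alone, while in the other 5 libraries the first made up 98.9% to 99.9% of the coding sum. These transcripts start 10758 bases apart and end 1899 bases apart. Neither the share (limma adjusted p = 0.872) nor the gene sum passed. The sum was 4.14, 28.3 and 28.2 FPKM in the controls and 28.2, 29.3 and 24.9 FPKM with PAMK, a log2 difference of 0.79 ± 0.732 (limma adjusted p = 0.729).

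A transcript that leads in some libraries and not in others was common in these tables, also within a group. Of the 33 genes of the set that had at least 1 FPKM in every library and at least 2 coding transcripts listed above 0, the leading transcript was the same in all 6 libraries in 18 (54.5%). It differed between libraries of 1 group in 14 (42.4%), beside 39.9% of all 4582 such genes. Tra2a was the 1 gene of the 33 with one leading transcript in all controls and another in all PAMK libraries, a pattern shown by 25 of the 4582 genes (0.546%). This count was added after the values had been seen.

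The isoforms of the Srsf genes showed no group difference past the threshold. SR proteins have 1 or 2 RNA recognition motifs and a domain rich in arginine and serine. Srsf1 was led by ENSMUST00000139129, with 56.0%, 73.3% and 90.5% in the controls and 73.1%, 67.5% and 75.2% with PAMK, so that the PAMK values lay inside the control range (limma adjusted p = 0.992). Srsf10 was led by ENSMUST00000126641 in most libraries. That transcript held 42.0%, 21.3% and 50.2% in the controls and 41.6%, 47.2% and 51.8% with PAMK (limma adjusted p = 0.880). ENSMUST00000102544 of Srsf10 held 51.4% in control 2 and 18.4% to 28.8% in the others.

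Srsf7 was divided between ENSMUST00000063417 and ENSMUST00000235069. The first held 53.3%, 31.7% and 65.0% in the controls and 50.4%, 50.0% and 27.8% with PAMK. The second held 36.3%, 63.2% and 27.9% in the controls and 41.9%, 39.2% and 32.5% with PAMK. ENSMUST00000234095 of Srsf7 was at 0% to 4.10% in 5 libraries and at 31.9% in PAMK 3 (limma adjusted p = 0.872). The groups overlapped for each of these transcripts. The adjusted p of the 12 shares of Srsf1, Srsf7, Srsf10 and Tra2b ran from 0.872 to 0.998 in limma.

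**Figure D2:**
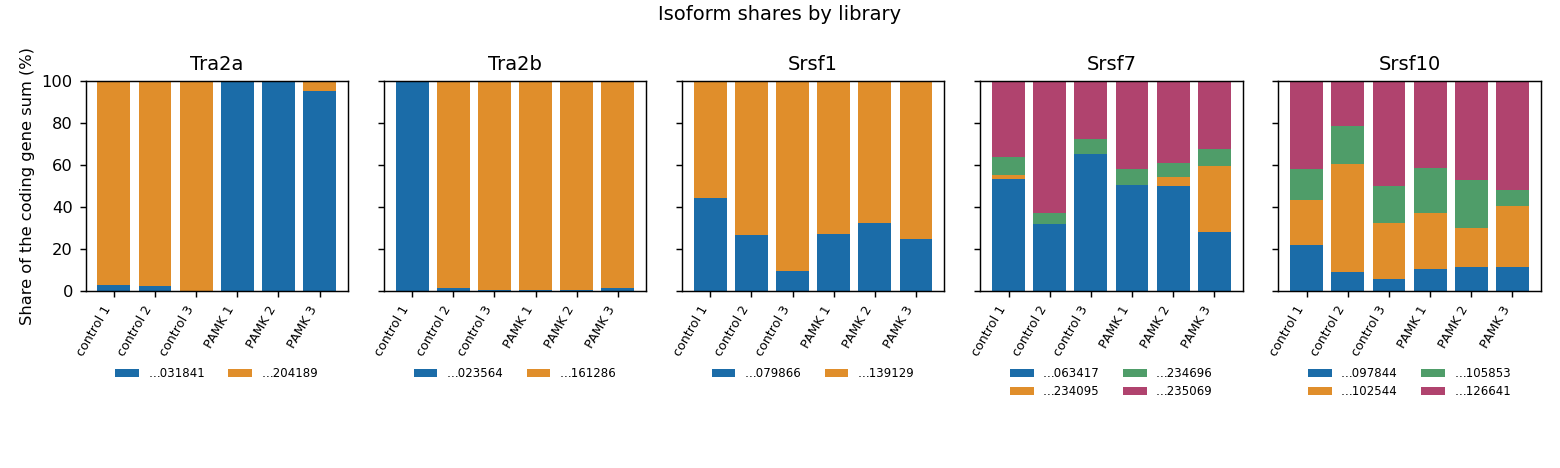
Share in percent of each tested coding transcript in its gene's coding sum, stacked per library, for the 5 genes with tested shares; colours are transcripts, named by their last 6 digits. Tra2a is the gene whose colour differs between all controls and all PAMK libraries, and in Tra2b the exception is control 1.

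At the gene level, none of the 69 genes that passed the filter of a mean of 0.5 FPKM differed past the threshold in limma, adjusted over all 9781 genes tested. The smallest adjusted p was 0.244, for Rbm5. Over all genes, 7 of 9781 (0.0716%) passed. At an unadjusted p under 0.05 there were 10 of the 69 genes (14.5%), 7 higher and 3 lower with PAMK, beside 10.0% of all genes, of which 7.30% were higher and 2.71% lower. The split depends on the scaling. It was 6 higher and 5 lower after quantile normalization, where 426 of all genes were higher and 516 lower. It was 3 higher (Rbm5, Sf3a2 and Srsf9) and 6 lower (Rbm14, Rbm7, Srsf3, Srsf2, Hnrnpa0 and Hnrnpl) with library medians set equal, where 343 of all genes were higher and 738 lower. The groups did not overlap in 14 of the 69 (20.3%), 9 above and 5 below the controls, beside 19.5% of all genes, with 14.1% above and 5.40% below. The median log2 difference was 0.13, beside 0.057 over all genes. In bulk RNA, fewer cells of a type and less RNA per cell cannot be told apart.

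The other 14 genes were not tested. Rbm11, Rbm20, Rbm24, Rbm31y, Rbm44, Rbm46, Rbmxl2 and Srsf12 had coding sums of 0 in all 6 libraries. Rbm47 was listed at 0 in the controls and at 0.000336 to 0.0244 FPKM with PAMK. Rbm8a2, Rbm22, Rbm15b and Srsf4 also had low coding sums, with means under the filter. Noncoding transcripts held 99.2% of the Rbm22 level in both tables, at 4.14 to 6.16 FPKM over all libraries. For Srsf4 they held 92.7%, at 2.61 to 3.45 FPKM. Hnrnph1, whose protein most cell types contain, was at 0 to 0.0856 FPKM in the controls and 0.0441 to 0.656 FPKM with PAMK, and its close paralogue Hnrnph2 was at 13.2 to 15.1 FPKM in all libraries. Reads that fit near-identical copies may have been divided between them, so Hnrnph1 and Hnrnph2, Rbmx and its retrocopy Rbmxl1, Rbm8a and Rbm8a2, Rbm12b1 and Rbm12b2, and Hnrnpa1, which has many processed pseudogenes, are uncertain.

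**Figure D3:**
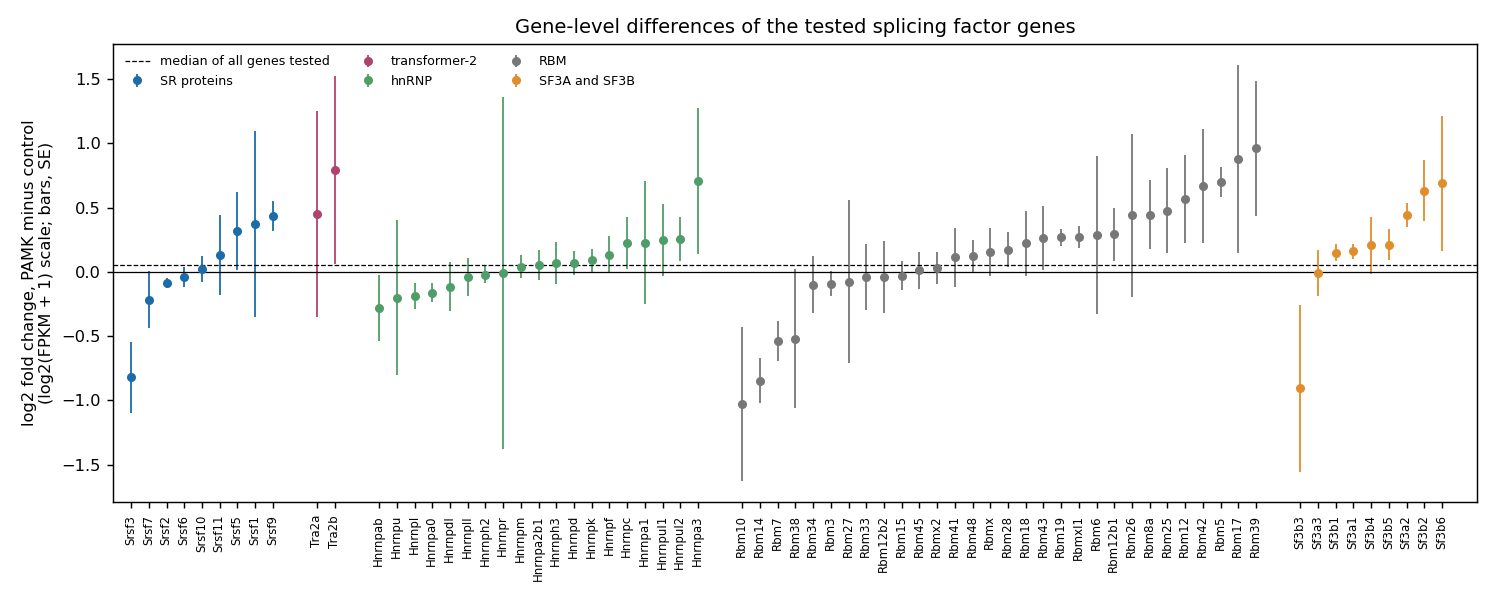
Log2 difference between PAMK and control of the coding gene sum for each of the 69 tested genes, ordered within role groups; points are limma estimates on the log2(FPKM + 1) scale, bars are their SE, and the dashed line is the median of all genes tested (0.057). Differences run from -1.03 for Rbm10 to 0.96 for Rbm39, and none passed the adjusted threshold.

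Among the SR protein genes, Srsf2 had the highest level. It encodes SC35, a core protein of nuclear speckles, and held 53.2% of the summed SR level. Srsf2 was at 156, 161 and 164 FPKM in the controls and at 153, 151 and 149 FPKM with PAMK. The groups did not overlap, but the log2 difference was -0.087 ± 0.0359 (limma adjusted p = 0.512). One transcript, ENSMUST00000092404, held nearly all of it, at 147 to 161 FPKM.

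Srsf3, the smallest SR protein, was at 17.5, 38.0 and 27.1 FPKM in the controls and at 15.2, 14.5 and 13.6 FPKM with PAMK. All PAMK libraries were below all controls, and the controls spread 2.17-fold against 1.12-fold with PAMK. The log2 difference was -0.82 ± 0.277 (limma adjusted p = 0.444). Srsf9 was at 1.93, 1.78 and 2.00 FPKM in the controls and at 2.54, 3.32 and 2.96 FPKM with PAMK. All PAMK libraries were above all controls, with a log2 difference of 0.44 ± 0.118 (limma adjusted p = 0.364). With its noncoding transcripts added, at 10.7, 8.83 and 9.16 FPKM in the controls and 6.56, 9.17 and 8.97 FPKM with PAMK, the Srsf9 difference was -0.042.

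Srsf1, the founding SR protein ASF/SF2, was at 20.8, 17.3 and 37.7 FPKM in the controls and at 18.5, 17.5 and 91.9 FPKM with PAMK. Its high values were 1 library of each group, and the groups overlapped (limma adjusted p = 0.879). Srsf6 was at 35.7 to 42.2 FPKM, Srsf7 at 18.9 to 33.9 FPKM and Srsf10 at 15.6 to 19.5 FPKM over all libraries, each with overlapping groups. Srsf5 was at 0.0449 to 1.27 FPKM and Srsf11 at 0.0872 to 1.11 FPKM, also overlapping. The limma adjusted p of these 5 genes ran from 0.742 to 0.954. The SR sum was 297 ± 20.2 FPKM in the controls and 288 ± 39.4 FPKM with PAMK (SD, n = 3).

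**Figure D4:**
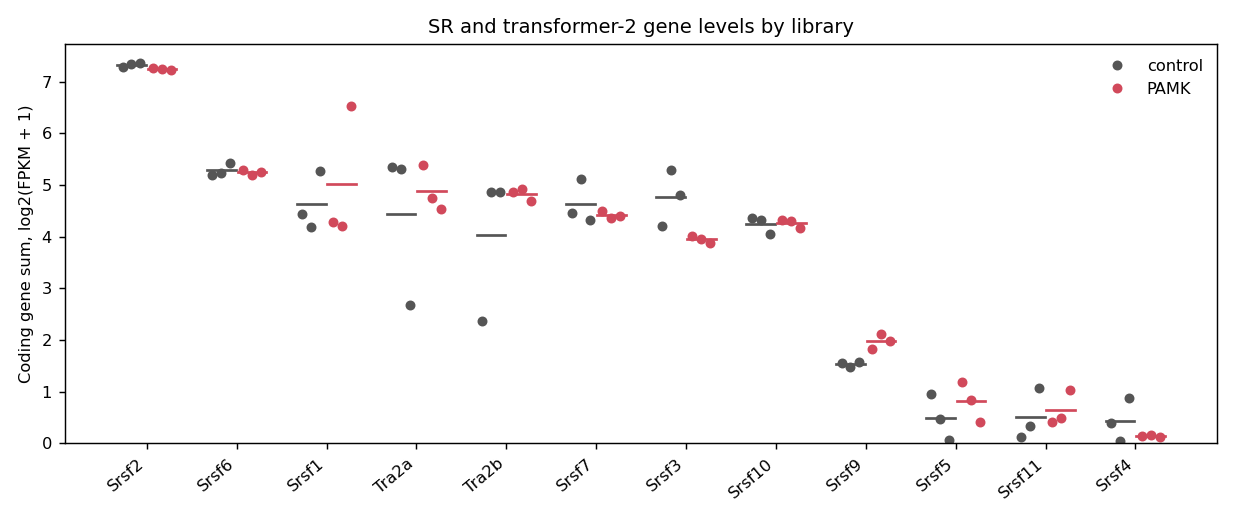
Coding gene sum as log2(FPKM + 1) in each library for the SR and transformer-2 genes listed above 0, ordered by mean level; dots are libraries and horizontal lines are group means of 3. Srsf2, Srsf3 and Srsf9 have groups that do not overlap, and the low Tra2a dot is control 3 and the low Tra2b dot control 1.

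Part of the FPKM under SR gene names was listed as noncoding. These transcripts were matched by gene name alone, and whether they are retained-intron or decay forms was not checked. Some under the names of the set are assembled models. MSTRG.8884.1, named Hnrnpc, lies on the plus strand, while Hnrnpc lies on the minus strand. In the lncRNA table, 202 transcripts carried the name of 59 of the 83 genes. Of the SR genes above 0, 5 of 10 had over 50% of their FPKM over both tables in the lncRNA table, and 3 had over 90%. Other genes of the set were also listed this way. Of the 76 splicing factor genes above 0 in either table, 23 had over 50% there and 8 over 90%. The 76 include the 10 SR genes. The share over all genes was not counted, so whether these counts are particular to the set was not tested. Srsf5 was at 28.3 to 34.1 FPKM there, 98.0% of its level in both tables. Srsf11 had 95.5%, Srsf4 92.7%, Srsf9 78.6% and Srsf3 71.2%, whereas Srsf2 had 12.7% and Srsf6 6.87%. Srsf3 noncoding transcripts summed to 60.7, 47.1 and 45.9 FPKM in the controls and to 49.1, 60.2 and 48.3 FPKM with PAMK, with overlapping groups. These shares also rest on the scaling of each table.

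**Figure D5:**
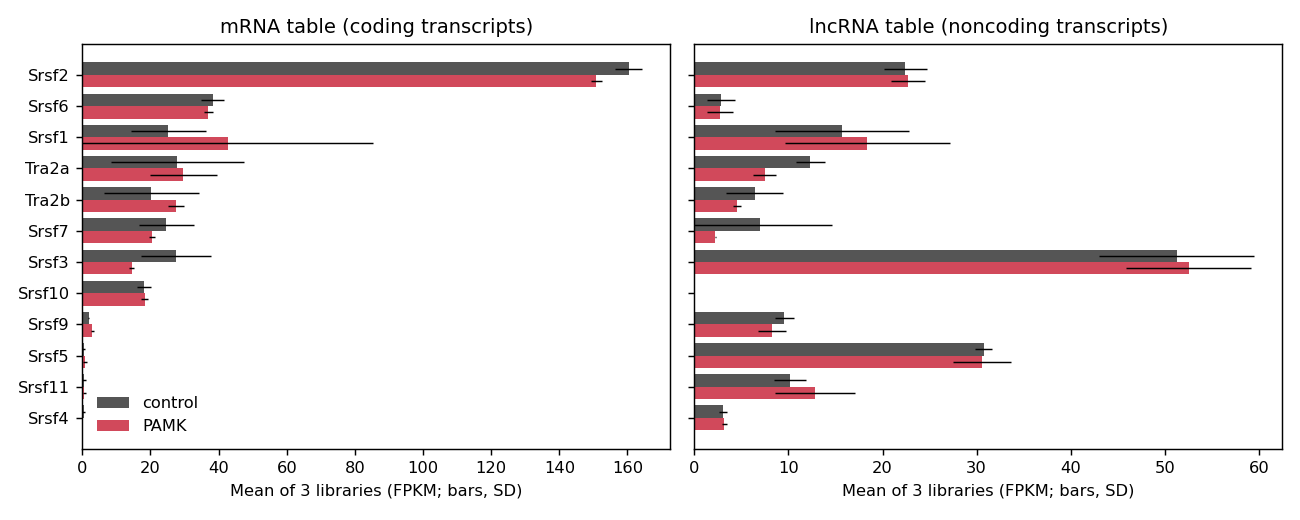
Mean FPKM of the SR and transformer-2 genes in the mRNA table (left) and in the lncRNA table (right), which have different x scales; bars are means of 3 libraries per group and lines are SD. Srsf3, Srsf5 and Srsf11 are listed mainly in the lncRNA table, Srsf2 and Srsf6 mainly in the mRNA table.

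The hnRNP genes had the highest summed level of the 5 role groups, 625 ± 38.0 FPKM in the controls and 608 ± 20.8 FPKM with PAMK (SD, n = 3). None of the 19 tested was under 0.05 even unadjusted in limma, beside 10.0% of all genes. Their median log2 difference was 0.052, beside 0.057 over all genes. Hnrnpl, which binds CA repeats, was at 162, 144 and 155 FPKM in the controls and at 145, 118 and 143 FPKM with PAMK (limma adjusted p = 0.576). Hnrnpf, which binds G tracts, was at 105, 149 and 122 FPKM and then at 124, 146 and 139 FPKM (limma adjusted p = 0.774). Both overlapped between the groups.

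Hnrnpa0, which binds AU-rich elements, was the 1 hnRNP gene of the 19 tested (5.26%) whose groups did not overlap, beside 19.5% of all genes. It was at 48.2, 49.8 and 54.8 FPKM in the controls and at 42.7, 45.8 and 47.9 FPKM with PAMK, a log2 difference of -0.16 ± 0.0717 (limma adjusted p = 0.531). Single hnRNP transcripts also stayed short of the threshold. ENSMUST00000035493 of Hnrnpf was at 91.0, 101 and 108 FPKM in the controls and at 111, 130 and 125 FPKM with PAMK (limma adjusted p = 0.617).

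Hnrnpk, a KH-domain protein that binds C-rich sequence, had transcripts in both tables with higher values in all PAMK libraries. Its coding transcript ENSMUST00000176558 was at 3.61, 2.71 and 4.28 FPKM in the controls and at 5.39, 6.57 and 6.01 FPKM with PAMK (limma adjusted p = 0.514). Its noncoding transcript ENSMUST00000176888 was at 3.24, 3.84 and 4.04 FPKM and then at 7.54, 9.30 and 8.07 FPKM. That difference, 1.14 ± 0.177 on the log2(FPKM + 0.1) scale, had the smallest p of the noncoding transcripts of these genes and did not pass (limma adjusted p = 0.274). The Hnrnpk coding sum was at 60.2 to 70.2 FPKM in the controls and 65.5 to 76.2 FPKM with PAMK, overlapping.

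Hnrnpc, which binds U tracts, was chosen after its values were seen. Its transcript ENSMUST00000228748 held 0.105%, 7.78% and 8.73% of the coding sum in the controls and 60.2%, 8.83% and 53.8% with PAMK. PAMK 2 lay next to the controls and the share did not pass (limma adjusted p = 0.872).

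The SF3A and SF3B subunits had values above the controls in 4 of 9 genes without overlap, and in none below, beside 14.1% of all genes above and 5.40% below. 3 of the 9 genes were under 0.05 before adjustment in limma, Sf3a2, Sf3b2 and Sf3a1, all higher, beside 7.30% of all genes higher, and none passed after adjustment. With library medians set equal, Sf3a2 alone of these 3 was still under 0.05, beside 3.51% of all genes higher. Sf3a2 was at 6.21, 5.68 and 6.41 FPKM in the controls and at 9.22, 8.83 and 7.88 FPKM with PAMK, a log2 difference of 0.44 ± 0.0915 (limma adjusted p = 0.294). Its main transcript ENSMUST00000148665 was at 4.75, 4.17 and 5.05 FPKM and then at 7.39, 7.77 and 6.81 FPKM (limma adjusted p = 0.321).

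Sf3b2 was at 6.04, 8.41 and 9.38 FPKM in the controls and at 12.8, 16.4 and 9.72 FPKM with PAMK (limma adjusted p = 0.489). Its noncoding transcripts held 67.0% of its level in both tables. They summed to 15.7, 21.0 and 26.5 FPKM in the controls and to 22.5, 21.1 and 20.7 FPKM with PAMK, with overlapping groups. Sf3a1 was at 11.0, 10.8 and 11.3 FPKM and then at 12.2, 12.9 and 12.1 FPKM (limma adjusted p = 0.490). Sf3b1, the subunit that contacts the branch point region, was at 36.9, 37.4 and 38.4 FPKM and then at 40.6, 45.8 and 39.3 FPKM (limma adjusted p = 0.538). For the coding sums of Sf3b2, Sf3a1 and Sf3b1, all PAMK libraries were above all controls. The subunit with the highest mean, Sf3b3, was split within both groups, at 88.3, 46.4 and 85.1 FPKM in the controls and 21.4, 97.2 and 24.2 FPKM with PAMK (limma adjusted p = 0.684).

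The RBM genes are joined by an RNA-binding motif and differ widely in function. Rbm3, a cold-inducible protein, held 41.3% of their summed level. It was at 100, 94.0 and 109 FPKM in the controls and 84.4, 96.6 and 104 FPKM with PAMK. The groups overlapped for Rbm3 (limma adjusted p = 0.763). Of the 30 RBM genes tested, 3 were higher and 2 lower at an unadjusted p under 0.05 (16.7%, beside 10.0% of all genes, 7.30% higher and 2.71% lower), and none passed after adjustment in limma.

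Rbm5 is a regulator of alternative splicing known as a tumour suppressor candidate. It was at 0.934, 0.915 and 1.07 FPKM in the controls and at 2.13, 1.95 and 2.56 FPKM with PAMK. The groups were well apart, with a log2 difference of 0.70 ± 0.115 (limma adjusted p = 0.244). The lncRNA table held 89.9% of the Rbm5 level in both tables, and there ENSMUST00000183307 was at 5.46, 4.30 and 4.20 FPKM in the controls and at 6.04, 7.83 and 7.91 FPKM with PAMK. That transcript also lay above the controls in all PAMK libraries and did not pass (limma adjusted p = 0.826).

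Rbm14 is a paraspeckle protein and coactivator. It was at 11.0, 13.2 and 8.21 FPKM in the controls and at 5.36, 5.81 and 5.20 FPKM with PAMK. All PAMK libraries lay below all controls, with a log2 difference of -0.85 ± 0.173 (limma adjusted p = 0.284). Nearly all of it was ENSMUST00000113793, at 8.08 to 13.1 FPKM in the controls and 5.20 to 5.79 FPKM with PAMK (limma adjusted p = 0.377). Rbm7 is a subunit of the nuclear exosome targeting complex. It was at 1.29, 1.24 and 1.45 FPKM and then at 0.731, 0.305 and 0.822 FPKM (limma adjusted p = 0.392).

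Rbm19, a nucleolar protein of ribosome assembly, was at 11.4, 12.4 and 11.8 FPKM in the controls and at 14.8, 15.0 and 13.7 FPKM with PAMK (limma adjusted p = 0.343). Rbmxl1 was at 18.1, 19.1 and 19.7 FPKM and then at 23.7, 25.0 and 20.8 FPKM (limma adjusted p = 0.420). In both, all PAMK libraries were above all controls. Rbm10, the paralogue of Rbm5, overlapped between the groups, at 13.0, 4.12 and 3.12 FPKM in the controls and 0.989, 4.42 and 2.22 FPKM with PAMK (limma adjusted p = 0.610). Its log2 difference of -1.03 ran from -1.40 to -0.49 with 1 library left out.

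Over the noncoding transcripts of these genes, none of 177 tested passed in limma, beside 9 of 23670 (0.0380%) in all. At an unadjusted p under 0.05 there were 10 (5.65%), beside 5.76% of all. ENSMUST00000137340 of Rbm39 was at 2.80, 1.63 and 3.00 FPKM in the controls and at 0.944, 1.24 and 0.862 FPKM with PAMK (limma adjusted p = 0.752). ENSMUST00000172346 of Rbm28 was at 1.64, 1.12 and 0.914 FPKM and then at 0.644, 0.528 and 0.445 FPKM (limma adjusted p = 0.814). The assembled transcript MSTRG.3152.6 of Hnrnph3 was at 0, 0 and 0.361 FPKM and then at 0.450, 1.98 and 2.88 FPKM (limma adjusted p = 0.780). The counting is not stated to use strand, so antisense reads cannot be told apart.

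Levels that differed widely within a group were frequent. In 22 of the 69 tested genes (31.9%) the highest library of a group was at least 3-fold above the lowest, beside 30.0% of all 9781 genes. The lowest of all 6 libraries was control 3 in 7 of these 22 genes, control 2 in 6 and control 1 in 2. It was PAMK 1 in 4, PAMK 2 in 3 and PAMK 3 in 0. That library need not belong to the group with the wide spread. The count was not made over all genes, so nothing particular to these genes can be read from it. Hnrnpr was at 20.6, 18.4 and 0.611 FPKM in the controls and at 1.21, 17.1 and 15.6 FPKM with PAMK. Rbm17 was at 0.305, 0.306 and 0.219 FPKM and then at 0.00670, 6.11 and 0.804 FPKM. Both were chosen after their values were seen. Hnrnpr had 1 low library in each group, and the 3 PAMK libraries of Rbm17 all lay far from each other.

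The other genes of the splicing pathway were read from lists. Of 39 tested genes of the core spliceosome and snRNPs, none passed in limma, and 11 (28.2%) were higher at an unadjusted p under 0.05 and none lower (all genes, 7.30% and 2.71%). With library medians set equal this became 7 higher and 2 lower (all genes, 3.51% and 7.55%). After quantile normalization it was 8 higher and 1 lower (all genes, 4.36% and 5.28%). The groups did not overlap in 13 of the 39, all above the controls, beside 14.1% of all genes above. Their median log2 difference was 0.21, beside 0.057 over all genes. It was 0.099 beside -0.032 with library medians set equal, and 0.14 beside -0.024 after quantile normalization. Prpf8, the scaffold of the U5 snRNP, was at 90.4, 93.8 and 92.2 FPKM in the controls and at 104, 105 and 103 FPKM with PAMK (limma adjusted p = 0.280). Its GTPase partner Eftud2 was at 26.5, 29.8 and 28.5 FPKM and then at 35.9, 36.6 and 34.2 FPKM, and the Sm protein gene Snrpd3 at 4.71, 4.89 and 4.31 FPKM and then at 6.99, 7.59 and 6.48 FPKM (limma adjusted p = 0.280 for both).

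Of the 9 tested genes for SR protein kinases, the phosphatase and the importin, none was under 0.05 unadjusted in limma. Over all genes the share was 10.0%. Clk1, a kinase of SR proteins, had a coding sum of 0 in all libraries, and any noncoding level of it is not reported here. The genes of this list with the smallest p were Tnpo3, Ppp1ca and Clk3. Of 12 tested nonsense-mediated decay factors, 1 (8.33%) was under 0.05 unadjusted in limma, beside 10.0% of all genes. It was Magoh, of the exon junction complex, and was higher with PAMK. Magoh was at 60.9, 59.7 and 66.7 FPKM in the controls and 68.9, 68.0 and 69.3 FPKM with PAMK (limma adjusted p = 0.498). Casc3 came next by p. Rbm8a, the partner of Magoh, is in both this list and the RBM genes.

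Of 28 other splicing regulators tested, 3 were higher and 1 lower at an unadjusted p under 0.05 (14.3%, beside 10.0% of all genes) and none passed in limma. Pcbp2, a poly(C)-binding protein, was at 206, 218 and 212 FPKM in the controls and at 254, 253 and 252 FPKM with PAMK (limma adjusted p = 0.189). Son, a speckle protein, was at 1.13, 4.91 and 1.08 FPKM and then at 10.4, 6.95 and 9.48 FPKM (limma adjusted p = 0.364). Mbnl2, a muscleblind protein, was at 6.17, 4.56 and 10.1 FPKM and then at 3.98, 2.89 and 3.68 FPKM (limma adjusted p = 0.489). The groups did not overlap in these 3 genes.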

How the data were processed

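Total RNA of the 6 MTEC1 libraries was analysed from 2 deposited tables, one of mRNA transcripts and one of lncRNA transcripts; the small RNA libraries are not used here. The file headers call the deposited values normalized counts, and their size and decimals are those of FPKM as StringTie writes it, so FPKM is inferred. Per the submitters' processing notes the tools were cutadapt, FastQC, HISAT2, StringTie and edgeR; their versions and the build are not given in the sources used. The value 0.0001 stands for nothing measured and was set to 0; it fills 55.9% to 58.3% of the mRNA table per library. Depth is unknown, so no counting interval is given. No column was left without a sample.

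Gene sums and transcripts were tested with limma 3.58.1 in R 4.3.3 on log2(FPKM + 1), mean at least 0.5 FPKM, and noncoding transcripts on log2(FPKM + 0.1), mean at least 0.1 FPKM. Shares were tested on the arcsine square root where the gene sum was at least 1 FPKM in every library and the mean share 5% to 95%. A fold change on these scales understates that of low features. P-values were adjusted by Benjamini-Hochberg over all features, with a threshold of 0.05. The steps were tested on simulated data. The members and lists were chosen with earlier results of these data known. Genes named were Tra2a, Tra2b and tested Srsf genes, up to 8 other members per direction with the smallest p, the 2 highest of each role, up to 10 transcripts and 10 shares, 6 noncoding transcripts and 3 genes per list. Some genes of the lists are not reported here.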

Additional observations from a re-analysis of the deposited data

How the results depend on the processing

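Direction and side of the threshold were compared for 64 single genes and transcripts: under settings other than leaving out a library, 430 comparisons kept both, 6 lost the call and 6 turned. With 1 library left out the numbers were 359, 9 and 15, and 1 gained a call. No splicing factor gene sum or noncoding transcript passed under any setting run. The count of transcripts past the threshold was 0 in place of 1 with a pseudocount of 0.1 (adjusted p = 0.273 in limma for ENSMUST00000031841), with no filter (0.0940) and with the replicate block (0.242), and 0 to 2 with a library left out. The count of Tra2a shares was 1 in place of 2 with noncoding transcripts added, 0 with the replicate block (0.144), and 0 to 2 with a library left out. Other splicing regulators had 0 to 1 calls with a library left out (1 without PAMK 3: Tial1, chosen after its values were seen). Deviations of same-numbered libraries correlated at -0.0229, 0.00663 and 0.00313, so the levels show no shared effect of replicate number. These values cannot show whether the libraries were prepared in pairs, which the labels do not say.

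Log2 differences of gene sums that turned were, with noncoding transcripts added, 0.00946 for Hnrnpl, -0.042 for Srsf9 and -0.0357 for Tnpo3, and for Srsf10 -0.0446 under quantile normalization and -0.0921 under equal medians. The Srsf7 share of ENSMUST00000235069 was 0.00949 (arcsine scale) with noncoding transcripts added. With a library left out, log2 differences ran from -0.39 to 0.77 for Srsf1, -0.0739 to 0.0762 for Srsf10, -0.0636 to 0.42 for Srsf11, -0.0839 to 0.0297 for Srsf6, -0.38 to 0.0292 for Srsf7, -0.44 to 0.90 for Tra2a, -0.0429 to 1.21 for Tra2b and -0.061 to 0.47 for Ppp1ca. Arcsine differences ran from -0.154 to 0.00815 for ENSMUST00000102544, -0.167 to 0.00342 for ENSMUST00000063417, -0.12 to 0.0609 for ENSMUST00000235069 and -0.129 to 0.0767 for ENSMUST00000139129. The cause was not tested. Under equal medians the median log2 difference of all genes was -0.032, that of the splicing factor genes 0.045, and 38 of 69 lay above 0 in place of 45.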
